A study of Mus musculus with 14 samples.

Results

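The 9 genes described here, Foxp3, Ikzf2, Ikzf4, Il2ra, Ctla4, Lrrc32, Nrp1, Gpr83 and Capg, are core identity genes of regulatory T (Treg) cells. They were taken by gene symbol from 2 tables of transcript abundance that list the same 24537 symbols, 1 for skin Treg cells and 1 for hair follicle stem cells (HFSC), and each gene had 1 row in each table. The Treg table holds 5 libraries from mice of the genotype Foxp3YFP-Cre GRfl/fl (GR KO) and 3 libraries from wild-type mice (GR WT), from cells sorted 1 day after hair was removed by depilation. The HFSC table holds 3 GR KO and 3 GR WT libraries of CD34+ITGA6high cells, sorted from skin 4 days after depilation. In the GR KO mice Cre recombinase is driven by the Foxp3 gene and acts on floxed alleles of the glucocorticoid receptor gene Nr3c1, so Treg cells are the targeted cells and HFSC are not. The sources used here do not say whether the GR WT mice carried the Cre allele, so loss of the receptor and presence of Cre in the Foxp3 gene cannot be told apart. They also give no age or sex, and do not say whether each library came from a separate mouse. The p-values therefore measure the spread between these libraries, which may in part be technical.

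Treg cells are CD4+ T cells that hold back immune responses. Foxp3 encodes the forkhead transcription factor that defines the lineage. The factor binds beside partner proteins such as those of the RUNX and Ikaros families and holds a set of surface receptors at high levels. Chief among these are the alpha chain of the interleukin 2 (IL-2) receptor, encoded by Il2ra, and the inhibitory receptor encoded by Ctla4. IL-2 binding to its receptor activates STAT5, which in turn sustains Foxp3 and Il2ra. In skin, Treg cells gather around the hair follicle. The study's title places these libraries in a question about glucocorticoid signalling in skin Treg cells, stem cell activation and hair growth.

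The promoters of Il2ra, the only one of the 9 genes that passed the test in Treg cells, and of Foxp3, the lineage factor gene, are shown because the deleted receptor is a DNA-binding factor. Each covers 250 bases before and 50 bases after the start of the transcript in RefSeq on the GRCm38.p6 (mm10) assembly, plus strand, chr2:11642542-11642841 for Il2ra and chrX:7579426-7579725 for Foxp3. Capitals mark AGAACA, the core hexamer of the glucocorticoid receptor motif, read on both strands.

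Il2ra: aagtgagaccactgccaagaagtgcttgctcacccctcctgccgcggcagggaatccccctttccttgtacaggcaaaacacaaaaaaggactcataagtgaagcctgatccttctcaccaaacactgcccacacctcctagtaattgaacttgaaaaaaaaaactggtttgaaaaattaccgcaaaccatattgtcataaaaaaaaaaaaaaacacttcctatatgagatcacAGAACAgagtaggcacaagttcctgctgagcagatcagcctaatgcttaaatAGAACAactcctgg

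Foxp3: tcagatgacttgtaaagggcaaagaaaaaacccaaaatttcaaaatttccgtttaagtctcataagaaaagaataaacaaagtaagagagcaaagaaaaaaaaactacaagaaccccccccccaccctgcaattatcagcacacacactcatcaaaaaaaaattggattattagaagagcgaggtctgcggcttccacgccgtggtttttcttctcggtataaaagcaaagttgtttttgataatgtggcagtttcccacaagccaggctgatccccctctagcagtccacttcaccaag

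The Il2ra window holds 2 matches, with first bases at -16 and 37 from the transcript start, and this Foxp3 window holds none. The hexamer occurs on either strand in 18.97% of 32851 RefSeq promoter windows of 300 bases. The full palindrome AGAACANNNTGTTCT, which contains the hexamer, occurs in 0.009132% of those windows and in none of the windows of the 9 genes. A window was found for 6 of the 9 genes. Among the others, 1 Capg window that does not begin at the start used in the tables holds 1 hexamer at 31. A second Foxp3 window further into the gene holds 1 match to the STAT motif TTCNNNGAA at -139, a motif found in 8.298% of windows. The forkhead motif GTAAACA (3.65% of windows) and the RUNX motif TGTGGT (16.76%) have no match in any window of the 9 genes. These matches describe letters in a window and are not binding data.

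Abundance is given in TPM, a count scaled by transcript length and library size, and differences as GR KO minus GR WT on the log2(TPM + 1) scale. They were tested with limma over every gene with a mean of at least 1 TPM, and the adjusted p (Benjamini-Hochberg over those genes, two-sided) is called at 0.05. Libraries held 9.17 to 14.46 M tags in Treg cells and 4.5 to 7.99 M tags in HFSC. The sorted cells were checked by the summed TPM of 13 T cell genes, among them Cd2, Cd3g and Thy1, which was 7290 to 7680 in Treg GR KO and 6616 to 7198 in Treg GR WT, against 9.614 to 15.85 in HFSC GR KO and 12.46 to 13.77 in HFSC GR WT. Markers of several other cell types differed between the Treg groups. The sums for dendritic and Langerhans cells, for other lymphocytes and for endothelial cells overlapped. The sum of 7 hair follicle stem cell genes was 35.28 to 48.56 TPM in Treg GR KO and 54.21 to 76.75 TPM in Treg GR WT. The sum of 6 fibroblast genes was 21.86 to 106.4 TPM in Treg GR KO and 112 to 189.9 TPM in Treg GR WT. The sum of 10 keratinocyte genes was 51.45 to 155.1 TPM in Treg GR KO and 429.4 to 732.1 TPM in Treg GR WT. The sum of 10 macrophage and monocyte genes was 57.52 to 168.8 TPM in GR KO and 200.9 to 354.5 TPM in GR WT, and that of 6 neutrophil genes 18.76 to 45.22 TPM in GR KO and 92.56 to 340.3 TPM in GR WT. In bulk samples, fewer cells of a type and less RNA per cell cannot be told apart.

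The targeted gene Nr3c1 was at 105.6, 124.8, 106.4, 171.4 and 139.5 TPM in Treg GR KO and at 170.5, 233.4 and 229.7 TPM in Treg GR WT. All 5 GR KO libraries lay below GR WT 2 and 3, and GR KO 4 lay just above GR WT 1. The difference was -0.71 (SE 0.17, limma adjusted p = 0.0722). The GR KO mean was 61.32% of the GR WT mean. A value summed over the whole transcript need not fall further where part of a gene is deleted, so this check on the labels is a weak one. In HFSC, Nr3c1 averaged 43.64 ± 6.89 TPM in GR KO and 41.58 ± 7.07 TPM in GR WT (SD, n = 3 each).

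Among the 9 genes, Il2ra was lower in receptor-targeted Treg cells, and no other gene passed the test in either direction. Il2ra fell to 330.1 ± 10.95 TPM in GR KO (SD, n = 5), against 485 ± 33.4 TPM in GR WT (SD, n = 3). Foxp3 itself averaged 171.2 ± 29.1 TPM in GR KO and 227.4 ± 61.9 TPM in GR WT, with overlapping groups and an interval that reached past 0. Ctla4 remained among the most abundant transcripts of every Treg library. The 1 call among 9 stands beside 152 of 11579 genes lower (1.31%) and 23 higher (0.199%) over the whole table, or 1.51% in either direction. The split was 223 lower and 8 higher with T cell scaling, 126 lower and 34 higher with quantile scaling, and 213 lower and 40 higher with voom. With genes at least 5 times higher in HFSC left out, it was 76 lower and 11 higher of 10253 genes. At an unadjusted p under 0.05, 3 of the 9 genes passed (Il2ra, Capg and Ikzf4), where 14.1% of all genes did. The median difference of the 9 genes was -0.26 and that of all genes tested -0.04, and 6 of the 9 values were negative.

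**Figure D1:**
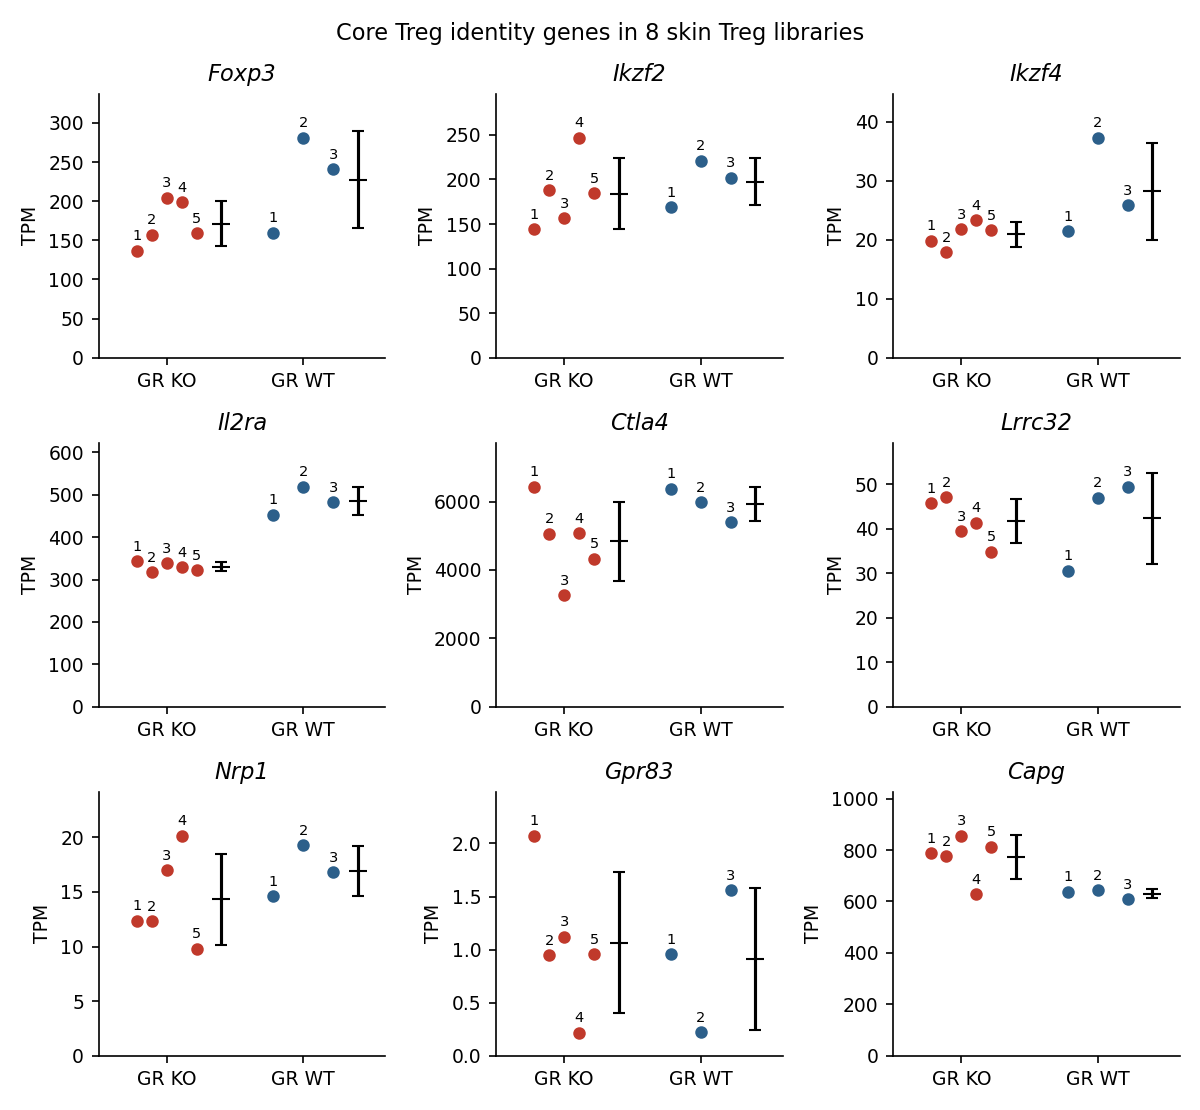
Abundance in TPM (linear axes from 0) of the 9 genes in each Treg library, GR KO (red, 5 libraries) left of GR WT (blue, 3 libraries), with the replicate number above each point and the mean ± SD in black. The 5 Il2ra values in GR KO sit between 317 and 343.8 TPM, below all 3 GR WT values, while the groups overlap for the other 8 genes.

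The transcription factor genes come first. Foxp3 (NM_054039, chromosome X, 7579676 to 7595243 in mm10, plus strand) was at 136.9, 157.1, 204.5, 198.5 and 159 TPM in GR KO 1 to 5 and at 159.8, 281.4 and 240.9 TPM in GR WT 1 to 3. All GR KO libraries lay below GR WT 2 and 3, whereas GR WT 1 lay within the GR KO range. The difference was -0.38 (95% interval -0.79 to 0.02, limma adjusted p = 0.381). Without GR WT 1 the difference was -0.62 (limma adjusted p = 0.117) and without GR WT 2 it was -0.21 (limma adjusted p = 0.694). The interval of Foxp3 holds both 0 and the -0.55 measured for Il2ra. Foxp3 exons overlap those of Flicr, Ccdc22 and Gm36995 in the GENCODE M21 annotation of mm10. Exons of Ikzf2 overlap those of Gm29114, exons of Ikzf4 those of Gm26876 and exons of Nrp1 those of Mir1903. Nothing in the labels or headers says whether strand entered the counting, and shared reads could not be set apart.

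Ikzf2 (NM_011770, chromosome 1, 69531210 to 69685960, minus strand) encodes Helios, an Ikaros family zinc finger factor found in most Treg cells. It was at 144.1, 187.9, 156.5, 247.1 and 184.3 TPM in GR KO and at 169.2, 221.2 and 201.9 TPM in GR WT. The GR KO libraries spanned the whole GR WT range, and GR KO 4 was the highest of all 8. The difference was -0.12 (SE 0.16, limma adjusted p = 0.801). Its sign depended on transcript length, as described below. Ikzf4 (NM_011772, chromosome 10, 128632415 to 128645993, minus strand) encodes Eos, a related factor that works as a corepressor of Foxp3. It was at 19.84, 17.89, 21.77, 23.3 and 21.56 TPM in GR KO and at 21.45, 37.29 and 25.78 TPM in GR WT, with GR WT 2 well above the rest. The difference was -0.38 (95% interval -0.76 to -0.01, limma adjusted p = 0.35), and without GR WT 2 it was -0.17 (limma adjusted p = 0.704).

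Among the receptor genes, Il2ra (NM_008367, chromosome 2, 11642792 to 11693194, plus strand) encodes CD25, the chain that gives the IL-2 receptor its high affinity. It was at 343.8, 317, 338, 329 and 322.5 TPM in GR KO and at 452.9, 519.5 and 482.5 TPM in GR WT. Every GR KO library lay below every GR WT library, which was so for 5.1% of all genes tested. The difference was -0.55 (SE 0.08, 95% interval -0.73 to -0.38, limma adjusted p = 0.00575), and the GR KO mean was 68.06% of the GR WT mean. The GR KO libraries lay close together, with a coefficient of variation of 3.318%, where the median of the 1064 genes with at least 100 TPM was 9.516%. A smaller one was found for 18 of the 1064 genes in GR KO. In GR WT that of Il2ra was 6.884%, and 264 of the 1064 genes had a smaller one. The test itself uses the spread within groups, so these values are no separate support for the call. The call held with any 1 library left out, with differences of -0.60 to -0.50. It also held when each library was scaled to its T cell genes (-0.68, limma adjusted p = 0.00195), a scaling that moved the median of all genes to -0.17. Of 21 alternatives in all, 2 ended the call, both with the replicate number as a block.

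The 2 other chains of the IL-2 receptor allow Il2ra to be read within the receptor. Il2rb, the signalling beta chain gene, averaged 367.4 ± 41.7 TPM in GR KO and 401.4 ± 66.6 TPM in GR WT, and Il2rg, the common gamma chain gene, averaged 1031 ± 119 TPM in GR KO and 1200 ± 81 TPM in GR WT. Neither passed (limma adjusted p = 0.726 and 0.381). The ratio of Il2ra to Il2rb TPM was 0.81 to 1.07 in GR KO and 1.13 to 1.39 in GR WT, with no overlap. The ratio of Il2ra to Il2rg was 0.289 to 0.4035 in GR KO and 0.4006 to 0.4085 in GR WT, where 1 GR KO library reached into the GR WT range. Set against Cd3e, a chain of the T cell receptor complex, Il2ra gave ratios of 1.672 to 2.375 in GR KO and 2.639 to 3.373 in GR WT. The same ratio for Foxp3 was 0.856 to 1.139 in GR KO and 1.191 to 1.59 in GR WT. The transcripts of Il2rb (2684 bases), Il2rg (1549 bases) and Cd3e (1426 bases) are shorter than those of Il2ra (4418 bases) and Foxp3 (3750 bases). Differences between the groups moved with transcript length, as described below, and the ratios were not adjusted for this. The share of other gene pairs whose ratios do not overlap was not computed. These ratios are descriptions, and no test was run on them.

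Ctla4 (NM_009843, chromosome 1, 60909025 to 60915832, plus strand) encodes the inhibitory receptor for CD80 and CD86. It was at 6442, 5062, 3263, 5075 and 4333 TPM in GR KO and at 6383, 5987 and 5397 TPM in GR WT. GR KO 1 was the highest of all libraries, and the other 4 GR KO libraries lay below the GR WT range. The difference was -0.32 (SE 0.18, limma adjusted p = 0.455), and without GR KO 3 it was -0.19 (limma adjusted p = 0.609). Ctla4 ranked 5 to 17 among the 24537 genes of each Treg library. Its TPM was 9.398 to 22.18 times that of Cd28, the activating receptor for the same ligands, in GR KO, and 15.08 to 19.28 times in GR WT.

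Lrrc32 (NM_001113379, chromosome 7, 98494222 to 98501830, plus strand) encodes GARP, which displays latent TGF-beta on the Treg surface. It was at 45.71, 47.13, 39.41, 41.31 and 34.85 TPM in GR KO and at 30.53, 46.96 and 49.49 TPM in GR WT, so the GR KO libraries lay inside the GR WT range. The difference was 0.00 (95% interval -0.36 to 0.36, limma adjusted p = 0.999). Nrp1 (NM_008737, chromosome 8, 128359073 to 128505475, plus strand) encodes neuropilin 1, a receptor for semaphorins that is high on Treg cells of thymic origin in mice. Its values were 12.36, 12.31, 16.97, 20.17 and 9.812 TPM in GR KO and 14.63, 19.28 and 16.82 TPM in GR WT. GR KO held both the lowest and the highest Nrp1 library, and the difference was -0.26 (SE 0.21, limma adjusted p = 0.632). It was -0.14 without GR KO 5 (limma adjusted p = 0.843), -0.17 without GR WT 2 (0.839) and -0.08 with the length trend removed (0.889).

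Gpr83 (NM_001310734, chromosome 9, 14860210 to 14870789, plus strand) encodes a G protein coupled receptor of the Treg signature. It was barely detected in skin Treg cells, at 0.216 to 2.075 TPM in GR KO and 0.221 to 1.559 TPM in GR WT, or 6 to 59 tags per library. The difference was 0.11 (95% interval -0.71 to 0.94, limma adjusted p = 0.93), too wide to place at this depth. Capg (NM_007599, chromosome 6, 72544391 to 72562983, plus strand) encodes a protein that caps actin filaments. It was at 788.4, 775.6, 856.7, 628.1 and 813.2 TPM in GR KO and at 637.9, 643.4 and 609.1 TPM in GR WT. The GR KO libraries lay above all GR WT libraries with the exception of GR KO 4. The difference was 0.29 (95% interval 0.06 to 0.51, limma adjusted p = 0.247), and without GR KO 4 it was 0.36 (limma adjusted p = 0.0623). With T cell scaling it was 0.16 (limma adjusted p = 0.421).

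**Figure D2:**
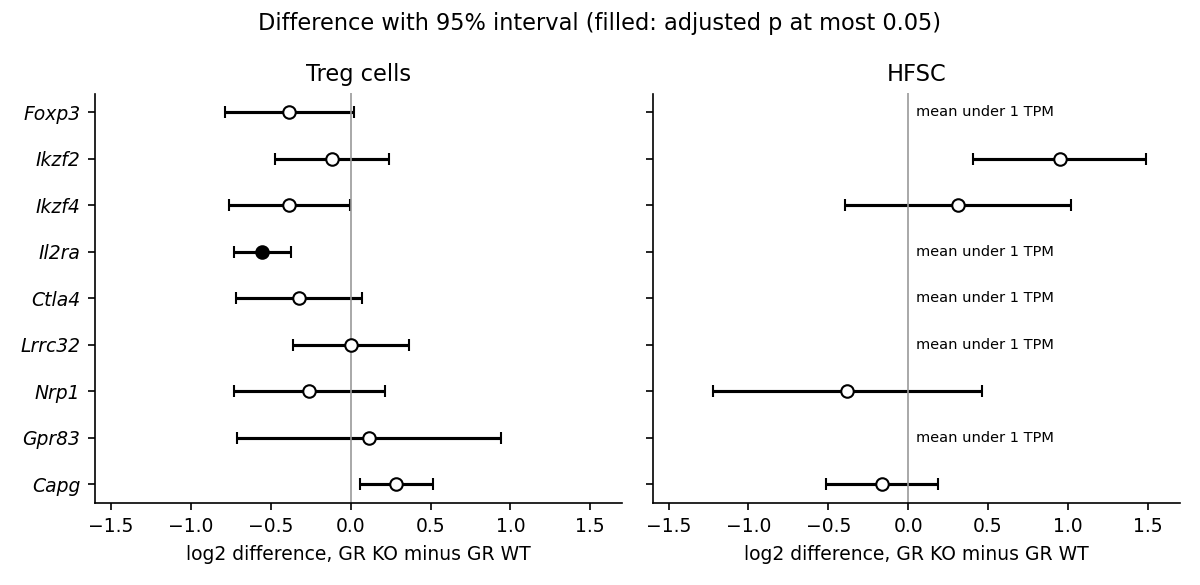
Difference in log2(TPM + 1), GR KO minus GR WT, with its 95% interval for each gene in Treg cells (left) and HFSC (right), and filled points for an adjusted p of at most 0.05. Il2ra in Treg cells, at -0.55, is the filled point, and 5 genes with a mean under 1 TPM in HFSC were not tested there.

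By mean TPM, the order of the 9 genes in Treg cells was Ctla4, Capg, Il2ra, Foxp3 and Ikzf2 together, Lrrc32, Ikzf4, Nrp1 and Gpr83. Foxp3 and Ikzf2 did not differ beyond their spread, with Foxp3 the higher in 1 of 5 GR KO and 2 of 3 GR WT libraries. Ranges of neighbours also met for Lrrc32 and Ikzf4 in GR WT and for Ikzf4 and Nrp1 in GR KO. Capg exceeded Il2ra by 2.34 times in GR KO and by 1.299 times in GR WT. The GR WT libraries differed among themselves across several of the genes at once: GR WT 1 had the lowest value of its group for 6 of 9 genes and GR WT 2 the highest for 6 of 9. The share of all genes with such extremes was not computed. GR WT 1 and GR WT 2 also differed over long transcripts in general, as described below. In GR KO the extremes were spread over the libraries, none holding more than 3 of the 9 highest or 2 of the 9 lowest values. The coefficient of variation in GR KO was 24.06% for Ctla4, 21.64% for Ikzf2 and 16.97% for Foxp3, against a median of 9.516% over genes with at least 100 TPM.

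Differences between the Treg groups moved with transcript length. Among genes with at least 10 TPM, the median difference was 0.09 for the 900 transcripts of up to 1000 bases and -0.29 for the 389 transcripts over 6500 bases. The libraries differed in this within groups too: the median deviation of the longest transcripts was -0.39 in GR KO 1, 0.21 in GR KO 4, -0.10 in GR WT 1, 0.37 in GR WT 2 and 0.30 in GR WT 3. The 9 transcripts run from 1235 bases (Capg) to 9411 bases (Ikzf2), with Il2ra at 4418 and Foxp3 at 3750 bases. With the length trend of each library removed, a step chosen after seeing the data, Il2ra was at -0.45 (limma adjusted p = 0.0448) and Foxp3 at -0.32 (limma adjusted p = 0.353). Ikzf2 changed sign, to 0.19 (limma adjusted p = 0.383), and the median of the 9 genes became -0.08. What made the libraries differ by length was not tested.

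**Figure D3:**
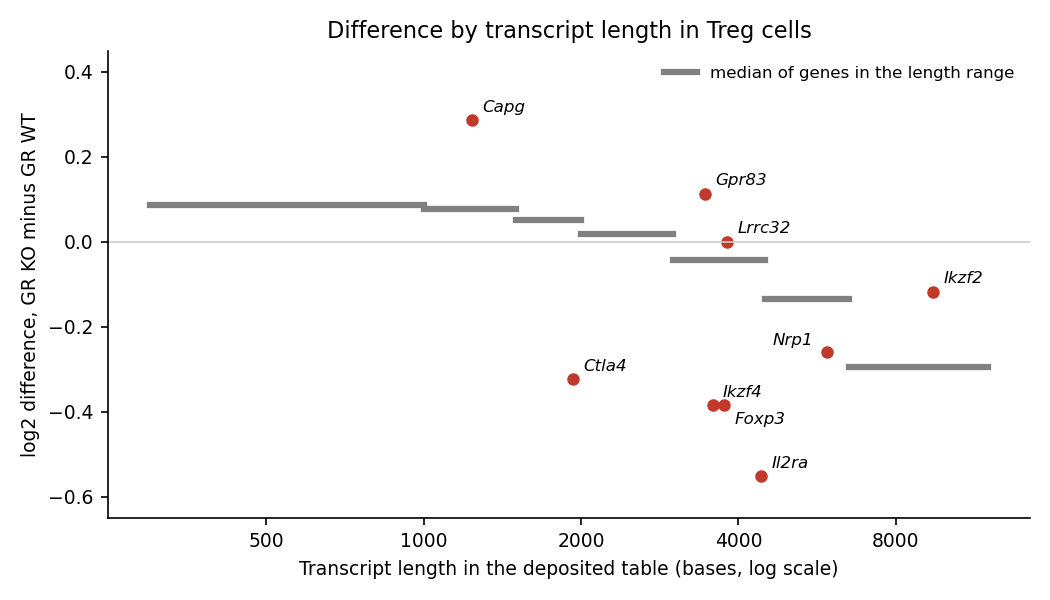
Difference in log2(TPM + 1), GR KO minus GR WT in Treg cells, against transcript length in bases (log axis), with the 9 genes in red and the median of all genes with at least 10 TPM in each of 7 length ranges as grey bars (the outer ranges are open-ended and cut off in the drawing). The bars step down from 0.09 to -0.29, and Il2ra lies below the bar of its own length range, which is at -0.04.

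The genes around the 9 were taken from 6 lists of pathways. IL-2 receptor signalling comprised 14 tested genes with a median difference of -0.17, and none passed in either direction, nor with voom. At an unadjusted p under 0.05, 3 of the 14 passed, where 14.1% of all genes did. The smallest p values there belonged to Myc, a transcription factor gene of cell growth that IL-2 induces, with 15.94 ± 3.54 TPM in GR KO and 26.06 ± 1.94 TPM in GR WT (-0.70, limma adjusted p = 0.0943, or 0.0346 with T cell scaling), and Socs3, an inhibitor of cytokine receptors, with 139.2 ± 40.7 TPM in GR KO and 217.9 ± 66.8 TPM in GR WT (-0.66, limma adjusted p = 0.289). Cish, a STAT5 target that restrains the same receptor, was at 161.5 ± 7.41 TPM in GR KO and 188.5 ± 19.1 TPM in GR WT (-0.22, limma adjusted p = 0.328). Il2, the cytokine gene that Foxp3 represses, was at 0 to 1.116 TPM in GR KO and 0 to 1.897 TPM in GR WT.

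Of 27 transcription factors that bind beside Foxp3 or act upstream of it, 2 fell, none rose, and the median difference was -0.20. Over all genes tested, 1.31% fell and 0.199% rose. At an unadjusted p under 0.05, 7 of the 27 passed, where 14.1% of all genes did. Foxp1, a forkhead factor related to Foxp3, was at 15.76 to 20.77 TPM in GR KO and 27.38 to 32.93 TPM in GR WT, and fell by 0.75 on the log2 scale (SE 0.13, limma adjusted p = 0.0165). Ikzf3, which encodes the Ikaros family factor Aiolos, was at 143.8 to 184.4 TPM in GR KO and 217.1 to 286.1 TPM in GR WT, and fell by 0.62 (SE 0.11, limma adjusted p = 0.0196). Neither pair of groups overlapped, which was so in that direction for 5.1% of all genes tested. The Foxp1 transcript has 6615 bases, in the longest range described above. With the length trend removed, Foxp1 was at -0.54 (limma adjusted p = 0.0321) and Ikzf3 at -0.53 (limma adjusted p = 0.00855). Both calls were lost without GR WT 2 (limma adjusted p = 0.0644 and 0.0656) and without GR WT 3 (0.072 and 0.0721), and that of Ikzf3 also without GR KO 5 (0.0536). The remaining family members with Ikzf2 and Ikzf4 did not pass: Ikzf1 averaged 42.92 ± 9.43 TPM in GR KO and 50.26 ± 3.89 TPM in GR WT, and Ikzf5 averaged 13.04 ± 3.01 TPM in GR KO and 17.27 ± 2.52 TPM in GR WT.

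Of 12 tested regulators of Foxp3 chromatin and protein stability, none passed, nor with voom, and the median was -0.11. At an unadjusted p under 0.05, 3 of the 12 passed, where 14.1% of all genes did. The acetyltransferase gene Ep300 averaged 17.08 ± 3.48 TPM in GR KO and 28.39 ± 8.66 TPM in GR WT (-0.67, limma adjusted p = 0.202). Tet2, whose product removes methylation from the Foxp3 locus, averaged 15.63 ± 3.64 TPM in GR KO and 21.78 ± 3.97 TPM in GR WT (-0.46, limma adjusted p = 0.326). Tet3 averaged 9.485 ± 2.29 TPM in GR KO and 14.03 ± 3.97 TPM in GR WT (-0.52, limma adjusted p = 0.35). The DNA methyltransferase gene Dnmt3a averaged 6.04 ± 1.18 TPM in GR KO and 7.74 ± 1.52 TPM in GR WT (-0.31, limma adjusted p = 0.533). All 4 transcripts are among the longest, over 6500 bases, a range whose median difference is given above.

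Of 23 further Treg signature genes, 1 fell, none rose, and the median was -0.15. Over all genes tested, 1.31% fell and 0.199% rose. At an unadjusted p under 0.05, 6 of the 23 passed, where 14.1% of all genes did. Pdcd1, which encodes the inhibitory receptor PD-1, was at 31.07 to 56.68 TPM in GR KO and 73.51 to 98.58 TPM in GR WT, and fell by 0.97 (SE 0.18, limma adjusted p = 0.0211). This call was lost without GR KO 4, GR KO 5 or any 1 of the GR WT libraries, with limma adjusted p values of 0.0501 to 0.072. In the other direction, Cd83, a surface protein of activated cells, was at 251.5 to 500.9 TPM in GR KO and 217.8 to 224.3 TPM in GR WT. The Cd83 groups did not overlap, which was so in that direction for 3.42% of all genes, and the difference of 0.75 did not pass (SE 0.17, limma adjusted p = 0.064). It did pass with median ratio scaling (limma adjusted p = 0.0448), with voom (0.0121) and without GR KO 1 (0.00513), settings in which 1 gene of the list rose.

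Shares over all genes tested were 1.31% lower, 0.199% higher and 14.1% at an unadjusted p under 0.05. Among 13 tested genes that are low in Treg cells relative to conventional T cells, 5 had such an unadjusted p. Of these 13 genes, 1 fell, none rose, and the median was -0.34. This was Dapl1, with 0 to 2.135 TPM in GR KO and 4.943 to 6.445 TPM in GR WT (-1.70, limma adjusted p = 0.0484), a call lost in 13 of 19 alternatives, among them without GR KO 1, 3 or 5 and without any 1 of the GR WT libraries (limma adjusted p = 0.0514 to 0.189). Dapl1 was more abundant in HFSC, at 29.27 ± 1.64 TPM in GR KO and 58.81 ± 31.65 TPM in GR WT (SD, n = 3 each), and the keratinocyte sums of the Treg libraries, given above, were also lower in GR KO. Their part in the Dapl1 difference was not tested. Of 12 tested ligands and partners of the surface proteins, 1 fell, none rose, and the median was -0.24. At an unadjusted p under 0.05, 3 of the 12 passed. Itgav, the integrin alpha V chain gene, whose product pairs with the beta 8 chain to free TGF-beta held by GARP, was at 35.61 to 50.52 TPM in GR KO and 64.54 to 93.3 TPM in GR WT, and fell by 0.85 (SE 0.15, limma adjusted p = 0.0198). The Itgav call was lost without GR WT 2 (limma adjusted p = 0.0684) or GR WT 3 (0.0952). The Itgav transcript has 7023 bases, and with the length trend removed the difference was -0.62 (limma adjusted p = 0.0153). The genes for the CTLA-4 ligands did not pass: Cd80 averaged 28.41 ± 3.9 TPM in GR KO and 36.07 ± 4.57 TPM in GR WT, and Cd86 averaged 20.52 ± 5.52 TPM in GR KO and 28.04 ± 1.77 TPM in GR WT.

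**Figure D4:**
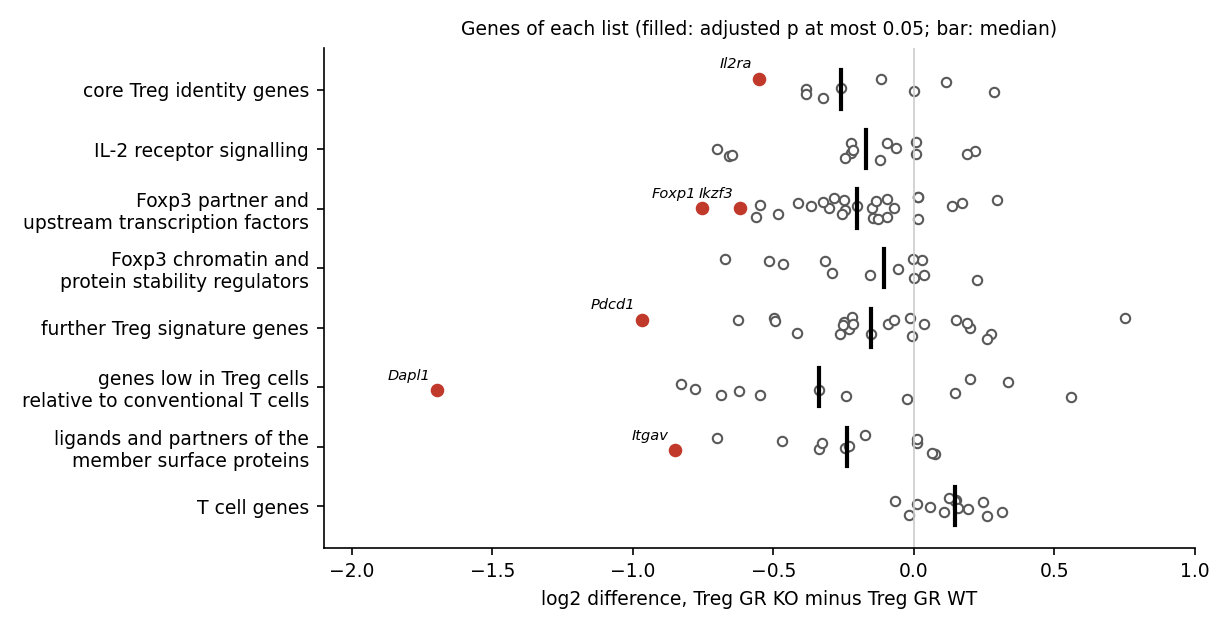
Difference in log2(TPM + 1), GR KO minus GR WT in Treg cells, of each tested gene in the 9 core genes, the 6 pathway lists and the T cell genes (rows), with filled red points for an adjusted p of at most 0.05, a black bar at the median and vertical scatter without meaning. The filled points are Il2ra, Foxp1, Ikzf3, Pdcd1, Dapl1 and Itgav, all to the left of 0, and the median of the T cell genes is 0.15.

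The 6 genes of these lists that passed in the TPM values as deposited, Il2ra included, were lower in GR KO. Over all 11579 genes tested, 152 were called lower (1.31%) and 23 higher (0.199%). Most keratinocyte, macrophage and neutrophil markers were lower in the same libraries. Called lower were 7 of 10, 5 of 10 and 2 of 4 tested genes, with medians of -2.48, -1.40 and -2.96. The neutrophil gene Mmp9 was not lower, with means of 21.79 TPM in GR KO and 17.33 TPM in GR WT. None of the 13 T cell genes passed with limma, with a median of 0.15. At an unadjusted p under 0.05, 2 of the 13 passed, where 14.1% of all genes did. The part of the other cells in the list differences was not tested.

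Genes whose profile over the 8 Treg libraries was among the 5 most like that of Foxp3, by the root-mean-square difference of centred log2 values over 6426 genes with at least 10 TPM, were Eif4g3 (0.0625), Kansl3 (0.0697), Elf4 (0.0704) and Herc2 (0.077). The median over the compared genes was 0.349. For Il2ra the 5 were Padi2 (0.0827), Klc1 (0.0952), Ndrg1 (0.104), Sh3rf1 (0.108) and Klhl6 (0.108), against a median of 0.329. No gene of the 6 lists was among these neighbours. With so few neighbours out of 6426 genes, this cannot show whether the lists follow Foxp3 or Il2ra.

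HFSC served as the background. Gpr83 was at 0 in all 6 HFSC libraries, where 3 tags correspond to 0.178 to 0.298 TPM. Foxp3 was at 0.11 to 0.357 TPM in HFSC GR KO and 0 to 0.121 TPM in HFSC GR WT, or 0 to 6 tags, which is 0.06146% of its Treg mean. Il2ra at 0.103 to 0.622 TPM and Ctla4 at 0 to 2.373 TPM over the 6 libraries were as low relative to Treg cells, at 0.08523% and 0.01463%. Lrrc32, at 0.541 to 1.733 TPM, averaged 2.041% of its Treg mean. These 5 genes fell under the mean of 1 TPM and were not tested. The tables were made separately, so levels set across them are descriptions.

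The other 4 genes were expressed in HFSC at levels that allowed a test, and none passed with limma (1 at an unadjusted p under 0.05, Ikzf2), where 22 of 12493 genes did (0.176%), while 2074 of 12493 (16.6%) had an unadjusted p under 0.05. Capg was well expressed, with 126.4, 159.1 and 105.6 TPM in GR KO and 152.4, 130.6 and 150.4 TPM in GR WT, or 19.11% of its Treg mean. Its groups overlapped (-0.16, SE 0.15, limma adjusted p = 0.637). Ikzf4 averaged 2.93 ± 1.1 TPM in GR KO and 2.1 ± 0.384 TPM in GR WT (0.31, limma adjusted p = 0.651). Nrp1 averaged 0.847 ± 0.33 TPM in GR KO and 1.41 ± 0.512 TPM in GR WT (-0.38, limma adjusted p = 0.644).

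Ikzf2 was the 1 gene of these 4 whose groups did not overlap. It was at 11.83, 12.33 and 10.97 TPM in HFSC GR KO and at 3.941, 7.829 and 5.536 TPM in HFSC GR WT. All GR KO libraries lay above all GR WT libraries, as did 10.7% of all genes tested in HFSC. The difference was 0.95 (SE 0.24, 95% interval 0.41 to 1.49, limma adjusted p = 0.119), and the GR KO mean was 203% of the GR WT mean. Voom on recovered tags gave 0.98 with a limma adjusted p of 0.0129, a setting that called 483 genes, against 22 in the analysis above. Without the shallowest HFSC library, GR WT 1, the difference was 0.74 (limma adjusted p = 0.124). The summed TPM of the 13 T cell genes in HFSC was 9.614 to 15.85 in GR KO and 12.46 to 13.77 in GR WT. Cd2 and Zap70 were at 0 in every GR KO library and Cd3d and Cd3g in every GR WT library. The highest were Thy1 and Lck, at means of 5.003 and 3.534 TPM in GR KO and 5.386 and 4.68 TPM in GR WT. The sum of 10 keratinocyte genes in HFSC was 17640 to 20650 TPM in GR KO and 23100 to 28080 TPM in GR WT, without overlap. The sum of 7 hair follicle stem cell genes was 830.4 to 1032 TPM in GR KO and 992.8 to 1059 TPM in GR WT. The part of T cell RNA, or of the make-up of the sorted cells, in the Ikzf2 difference was not tested. Ikzf2 averaged 4.623% of its Treg mean in HFSC, where Foxp3 averaged 0.06146%.

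**Figure D5:**
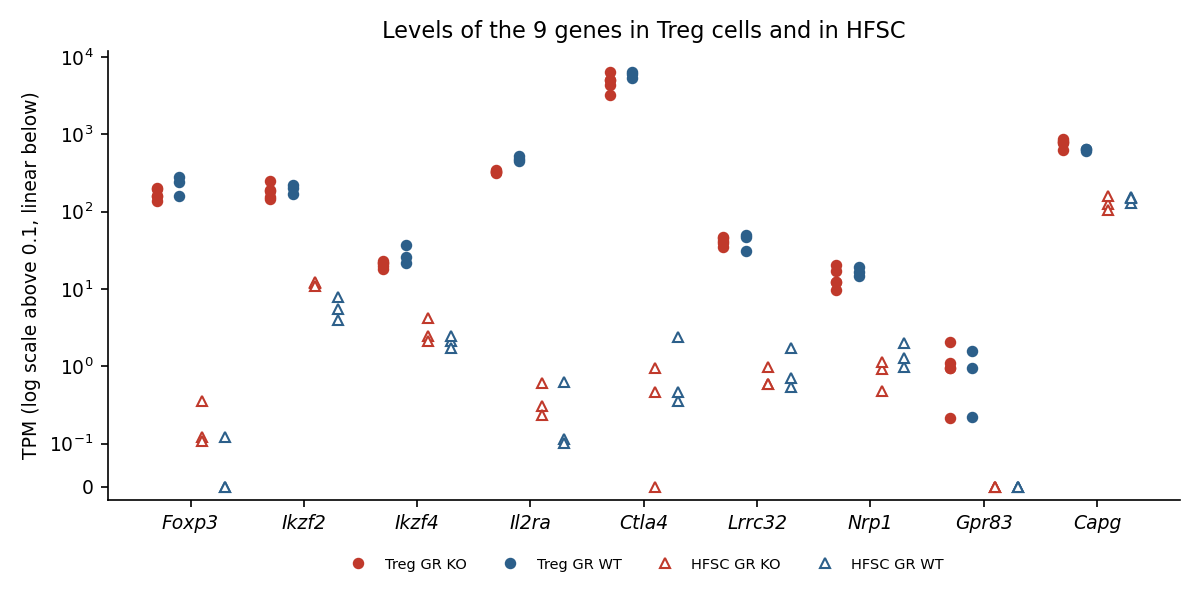
Abundance in TPM (log axis above 0.1, linear below) of the 9 genes in Treg libraries (filled circles) and HFSC libraries (open triangles), GR KO in red left of GR WT in blue within each cell type. Foxp3, Il2ra and Ctla4 are under 3 TPM in every HFSC library, Capg stays above 100 TPM, and the 3 Ikzf2 triangles of GR KO (10.97 to 12.33 TPM) lie above those of GR WT (3.941 to 7.829 TPM).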

How the data were processed

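Poly(A) RNA of sorted cells was sequenced with a stranded kit, per the labels' protocols. The authors deposited 1 TPM table per cell type, with a RefSeq transcript and its length for each symbol, per the file headers. Tools named in the submitters' processing notes are STAR, HOMER, FastQC and Trim Galore, with mm10 as the build, and their versions and settings were not given. The deposited TPM values sum to 639752 to 668742 per library. Multiplied by transcript length, at least 99.97% of low values in each library were whole steps of the same size (tolerance 0.1 tag), and tags were recovered from them. Among genes with under 30 tags, 82.16% to 89.39% had an even number, so mates of a pair may each have been a tag. A floor of 3 tags reflects counting error alone. Chi-square per degree of freedom between replicates was 2.822 to 17.39, so no library was treated as a duplicate.

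Groups were taken from the sample titles. The test was limma 3.58.1 (R 4.3.3) within each table, on log2(TPM + 1) with genotype as the term, a trended prior and a mean of at least 1 TPM. The test was checked on simulated libraries with 200 changed genes. Every simulated gene had the same coefficient of variation, 14% for Treg cells and 12.5% for HFSC, drawn independently between libraries. The simulation held no length trend and no difference in other cells. Its shares and false calls therefore describe that simpler setting and need not hold for the real libraries. Changes of 1.5, 2 and 4 times were found in 26.2%, 94% and 98.4% of cases over 11561 simulated Treg genes, with 4 false calls. The same shares over 12497 simulated HFSC genes were 16.4%, 70.8% and 95.5%, with 10 false calls.

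The 9 genes, the lists and the alternatives were chosen with earlier results of these data known. Named genes are the 9, Nr3c1, from each pathway list the members past the threshold or else the 4 with the smallest p, and the 5 most like Foxp3 and Il2ra in profile, of which 1 is not reported here. Il2, Il2rb, Cd3e, Cd28, Cd80, Cd86, Cd83, Ikzf1 and Ikzf5 were added after their values were seen. Alternatives were the pseudocount, the filter, median ratio and quantile scaling, scaling to T cell genes, voom on tags, a robust prior, a replicate block, genes high in HFSC left out, and each library left out. Length scaling, alone and with the block, was added after seeing the data. Promoters came from RefSeq on GRCm38.p6, and exon overlaps from GENCODE M21. Python 3.11.15 with pandas 2.3.3 was used for the rest.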

Additional observations from a re-analysis of the deposited data

How the results depend on the processing

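Correlations of the deviations of same-numbered Treg libraries were 0.17, 0.0873 and -0.117, and of HFSC libraries 0.0156, 0.0619 and -0.042. Treg libraries of different numbers gave -0.243 to 0.177. With so few libraries, these values show no clear pairing by replicate number and cannot exclude it. With the replicate block, 78 Treg genes passed and 0 of the 9, with Il2ra at -0.54 (limma adjusted p = 0.116). With the block and length scaling 67 passed and 0 of the 9, with Il2ra at -0.38 (limma adjusted p = 0.216). The block also ended the calls of Foxp1, Ikzf3, Pdcd1 and Dapl1, and with length scaling that of Itgav. In HFSC, 66 genes passed with the block and 0 with the block and length scaling. In every other alternative Il2ra stayed past the threshold, with differences of -0.68 to -0.45.

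The Treg count of 175 of 11579 genes was 87 of 10253 without genes higher in HFSC, with 76 lower and 11 higher. All 87 were also among the 175. The count was 84 to 186 with 1 library left out (107 without GR WT 1, 84 without GR WT 3). The HFSC count of 22 was 2 with no filter, 48 at a mean of at least 5 TPM, 69 with median ratio scaling, 58 with quantile scaling, 483 with voom (240 higher and 243 lower, against 18 and 4), 51 with a robust prior, 62 with length scaling and 0 to 5 with 1 library left out. Voom called 1 of the 9 in HFSC, Ikzf2. The causes were not tested. Values near 0 changed sign. Lrrc32 was at -0.0013 with a pseudocount of 5 TPM, -0.13 with T cell scaling, -0.021 without genes higher in HFSC and -0.21 to 0.13 with 1 library left out. Gpr83 was at -0.017 with T cell scaling and at -0.18 to 0.29 with 1 library left out. Ikzf2 in Treg cells was at 0.19 with length scaling and 0.11 with block and length scaling, and Dnmt3a at 0.0067 with length scaling and 0.030 with block and length scaling. Nr3c1 in HFSC was at -0.050 to 0.20 with 1 library left out. Nr3c1 in Treg cells passed in 6 of 21 alternatives. The depth of 6 to 59 tags limits Gpr83, and 3 or 5 libraries per group limit what can be seen below a 2-fold change.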
